A study of Rattus norvegicus with 18 samples.

Results

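SR9009 was compared with vehicle in neonatal rat ventricular myocytes after 48 h of phenylephrine, across 10424 of the 17312 genes in the deposited expression table. SR9009 is a small molecule made to activate REV-ERBα and REV-ERBβ, which are nuclear receptors, and phenylephrine is an α1-adrenergic agonist that makes cultured heart muscle cells hypertrophic. The cells came from the hearts of Sprague-Dawley rat pups aged 2 days, were plated with serum and then kept without serum in an insulin, transferrin and selenium medium. SR9009 or vehicle was given for 24 h before phenylephrine, so both groups at 48 h carry phenylephrine and differ by label in the pretreatment, with 3 libraries each. The series holds 18 libraries in 6 groups: SR9009 at 0, 4 and 48 h of phenylephrine and vehicle at 0, 4 and 48 h. The labels do not give the vehicle, the doses, or whether the 3 libraries of a group came from separate cultures. A gene was used when it had an estimate above 0 in both 48 h groups and averaged 1 FPKM (fragments counted per kilobase of a transcript, scaled by all mapped fragments) or more across the 6 groups. Just inside that limit were Tspan1 and Nos3, with means of 1.0000 and 1.0001 FPKM, and just outside it Cyp2r1 and RT1-T24-1, at 0.9995 and 0.997 FPKM.

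REV-ERB proteins bind short DNA elements near clock and metabolic genes and recruit co-repressors, which lower the transcription of the genes they bind. In the heart, the REV-ERB receptors belong to the circadian clock that sets daily rhythms of metabolism. Adrenergic stimulation of neonatal myocytes brings on natriuretic peptides, fetal and skeletal sarcomere isoforms, cytoskeletal growth and protein synthesis, the textbook signs of pathological hypertrophy.

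The authors combined the 3 libraries of each group into 1 FPKM per gene, bracketed by deposited confidence bounds. The 2 groups therefore cannot be tested against each other here, no standard deviation can be given, and the depth is unknown. Each difference below is SR9009 minus vehicle in log2(FPKM + 1), a scale that understates the change of low genes, and the range beside it is the widest that the bounds allow. Higher and lower are written of a gene whose difference is at least 1, about 2-fold, and that range excludes 0. This is a rule of size and not a test. By it 243 genes were higher with SR9009 (2.33%) and 474 lower (4.55%), together 6.88% of the genes used, with a median difference over all genes of -0.04. These shares are the background for every list below. With FPKM rescaled to equal sums in the 2 groups the split became 341 higher and 391 lower, and the median difference moved to 0.06. The sums that set this rescaling were 656724 FPKM with SR9009 and 710198 FPKM with vehicle. They leave out genes with a status of too many fragments, 8 with SR9009 and 5 with vehicle, so they do not cover the same genes. How much of the gap comes from this was not tested. Differences of size 2 or more were found in 27 of the higher and 62 of the lower genes.

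**Figure D1:**
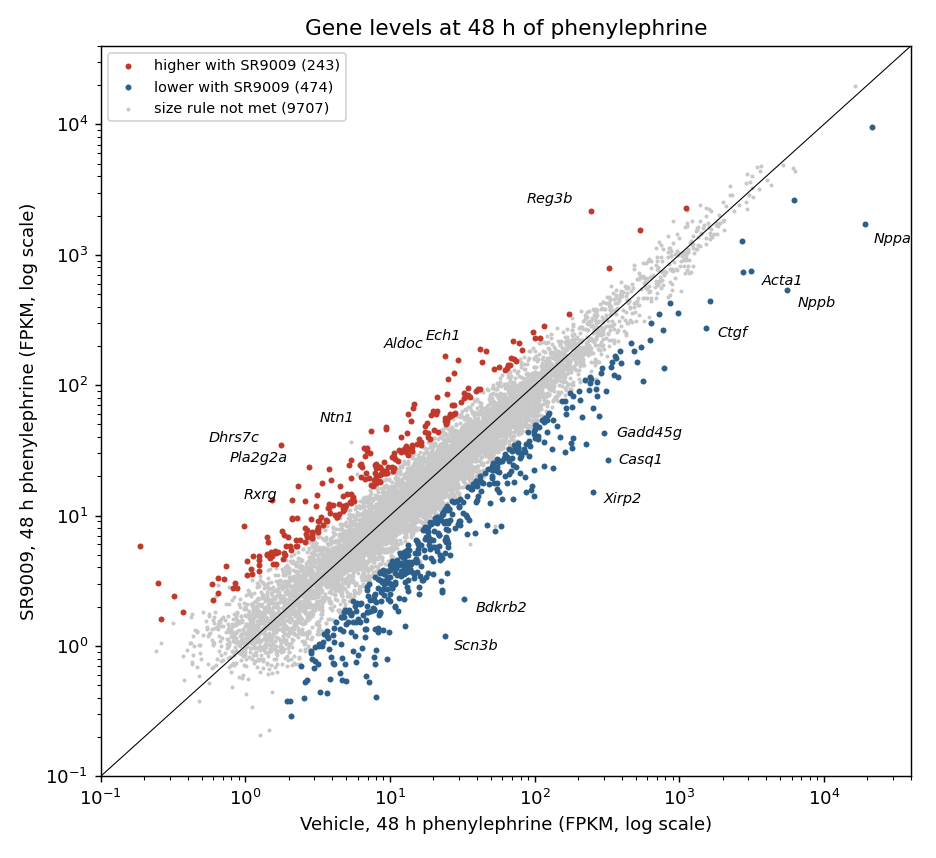
Level of each of the 10424 genes in FPKM with SR9009 (vertical axis) and with vehicle (horizontal axis) at 48 h of phenylephrine, both on log scales, with the diagonal marking equal levels. The 243 higher and 474 lower genes lie on either side, and Nppa and Nppb stand far below the diagonal at the high end.

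The cultures carried the transcripts of heart muscle cells at high levels in both groups. Troponin T (Tnnt2) had 4176 FPKM with SR9009 and 2945 FPKM with vehicle, and troponin I (Tnni3) 2426 FPKM with SR9009 and 1386 FPKM with vehicle. The 10 cardiomyocyte markers with a value in both groups summed to 13831 FPKM with SR9009 and 12579 FPKM with vehicle. Of these 2 were higher, both creatine kinases, and 1 lower, the muscle LIM protein gene Csrp3, with a median of 0.65. Other cell types were present too. The 10 fibroblast markers summed to 1319 FPKM with SR9009 and 1333 FPKM with vehicle, and 2 of 9 used were higher, while Col1a2 was listed at 0 in both groups. The higher markers were lumican (Lum, 51.6 FPKM with SR9009 and 18.1 FPKM with vehicle) and decorin (Dcn, 94.1 FPKM with SR9009 and 40.4 FPKM with vehicle). The 8 smooth muscle markers summed to 874 FPKM with SR9009 and 2016 FPKM with vehicle, and 2 of them, Cnn1 and Acta2, were lower. The list had a median of -0.49, with 5 members below 0 and 3 above. Myh11, a smooth muscle myosin, was among those above, with 14.6 FPKM with SR9009 and 11.6 FPKM with vehicle. Cnn1, Acta2 and transgelin are also expressed by immature or stressed cardiomyocytes and by activated fibroblasts, and their source here was not tested. Of 6 pericyte markers 1 was lower, Cspg4, and 0 higher, with sums of 121 FPKM with SR9009 and 179.6 FPKM with vehicle. Endothelial markers were low, at 15.03 FPKM in sum with SR9009 and 13.1 FPKM with vehicle, and 0 of 7 met the rule. Macrophage markers summed to 25.04 FPKM with SR9009 and 31.1 FPKM with vehicle, with C1qa lower and Cd74 higher among 8. Lymphocyte markers, with Cd3e, Cd3d and Cd79b listed at 0 in both groups, summed to 0.569 FPKM with SR9009 and 1.21 FPKM with vehicle, Schwann cell markers to 4.42 FPKM with SR9009 and 4.25 FPKM with vehicle, and mesothelial markers to 13.4 FPKM with SR9009 and 15.4 FPKM with vehicle. Of the Schwann cell and mesothelial markers 2 and 3 entered the comparison and 0 met the rule, while no lymphocyte marker entered it. In bulk RNA fewer cells of a type and less RNA per cell cannot be told apart, and the part of cell composition in the results below was not tested.

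The largest differences joined secreted peptides, sarcomere-associated proteins and membrane receptors on the lower side with metabolic and secreted genes on the higher side. Xirp2, an actin-binding protein of the myofibril and cell junctions (chromosome 3, 53563245 to 53658112, rn6), had 15.2 FPKM with SR9009 (bounds 12.9 to 17.5) and 252 FPKM with vehicle (bounds 209 to 294), the most negative difference of the named genes at -3.96 (-4.40 to -3.51). Nppa and Nppb, which encode the atrial and brain natriuretic peptides, had 1734 FPKM with SR9009 and 19205 FPKM with vehicle and 534 FPKM with SR9009 and 5588 FPKM with vehicle. Their bounds were far apart, at 1488 to 1980.2 FPKM with SR9009 and 15020.00 to 23391 FPKM with vehicle for Nppa. Bounds that do not overlap are a condition of the rule and hold for every gene counted. Corin, the protease that activates the atrial peptide, was on the opposite side, with 13.3 FPKM with SR9009 and 2.09 FPKM with vehicle (2.21, 1.76 to 2.66). Of the 8 natriuretic peptide, convertase and receptor genes used, these 3 met the rule. The receptors Npr1, Npr2 and Npr3 did not, and the convertase furin (Furin), the most abundant of the rest, had 68.5 FPKM with SR9009 and 89.9 FPKM with vehicle.

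Also among the 15 most negative differences were Scn3b, a sodium channel β subunit (-3.50), the bradykinin B2 receptor Bdkrb2 (-3.37), the stress-induced growth arrest gene Gadd45g (-2.79), and Azin2, an activator of polyamine synthesis (-2.74). They were joined by Gprc5a, a retinoic acid-induced orphan receptor (-2.70), the protease-activated receptor F2rl1 (-2.69), heparin-binding EGF-like growth factor Hbegf (-2.68), and Pxdc1 (-2.66). Mllt11 had 13.99 FPKM with SR9009 and 99.2 FPKM with vehicle, but its bounds were wide and its difference of -2.74 ranged over -4.92 to -1.41. On the higher side, Dhrs7c, a dehydrogenase of the sarcoplasmic reticulum (chromosome 10, 54352270 to 54370653), had 34.6 FPKM with SR9009 (bounds 29.3 to 39.9) and 1.76 FPKM with vehicle (bounds 0.799 to 2.71), a difference of 3.69 (3.03 to 4.51). Reg3b, a secreted lectin, reached 2181 FPKM with SR9009 and 246 FPKM with vehicle, which made it the most abundant of the 15 with the largest positive differences. Aldolase C (Aldoc) had 168 FPKM with SR9009 and 24.03 FPKM with vehicle. Netrin 1 (Ntn1), the secreted phospholipase Pla2g2a, and the matrix protein gene Adamtsl3 followed at 2.44, 2.70 and 2.32. Pik3ip1, an inhibitor of phosphoinositide 3-kinase, differed by 2.19, the orphan receptor Gpr22 by 2.16, and Ccdc85a by 2.23.

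Sarcomere genes that met the rule were lower in each list, and the medians of these lists were also below 0 before phenylephrine. Of 21 Z-disc and stretch-sensing genes 8 were lower and 0 higher, with a median of -0.75. After Xirp2 came the LIM-domain genes Fhl1 (732 FPKM with SR9009 and 2754 FPKM with vehicle) and Csrp3 (442 FPKM with SR9009 and 1643 FPKM with vehicle), and then Ankrd23 (-1.54) and Pdlim3 (-1.42). The most abundant member, the stretch-responsive Ankrd1, had 2655 FPKM with SR9009 and 6269 FPKM with vehicle and met the rule at -1.24. Of 18 actin, troponin and tropomyosin genes 4 were lower and 0 higher. Skeletal α-actin Acta1 had 754 FPKM with SR9009 and 3129 FPKM with vehicle (-2.05, -2.49 to -1.61), smooth muscle α-actin Acta2 220.4 FPKM with SR9009 and 624 FPKM with vehicle, and slow skeletal troponin T Tnnt1 3.94 FPKM with SR9009 and 10.4 FPKM with vehicle. Cardiac α-actin Actc1, the most abundant of the list, had 9484 FPKM with SR9009 and 21530.1 FPKM with vehicle, a difference of -1.18 that became -0.51 with quantile normalization and then missed the rule. The actin genes are close copies, so reads could be split between them. Of 14 myosin chain and M-band genes 4 were lower and 0 higher: the atrial and fetal light chain Myl4 (136 FPKM with SR9009 and 781 FPKM with vehicle), the skeletal light chain Myl1 (-1.82), the embryonic heavy chain Myh3 (-1.78) and the skeletal myosin-binding protein Mybpc2 (-1.65). The ventricular light chain Myl2, the most abundant of the list, did not meet the rule, with 4421 FPKM with SR9009 and 6272 FPKM with vehicle. Myl6 had a larger difference in size, at 4.19, but its bounds allowed -0.94 to 5.93 and it entered no count. Myh6 and Myh7, the α and β heavy chains, could not be compared: both carried a status of too many fragments at 48 h, Myh6 with SR9009 only, where vehicle had 1192 FPKM, and Myh7 in both groups.

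The promoter of Acta1 is shown because muscle actin promoters carry CArG boxes, the elements bound by serum response factor. It holds 1 CArG box, which begins 94 bases before the gene start and is in capitals (RefSeq, GRCr8, chr19:68784145-68784444, minus strand, 250 bases before to 50 after the start).
Acta1: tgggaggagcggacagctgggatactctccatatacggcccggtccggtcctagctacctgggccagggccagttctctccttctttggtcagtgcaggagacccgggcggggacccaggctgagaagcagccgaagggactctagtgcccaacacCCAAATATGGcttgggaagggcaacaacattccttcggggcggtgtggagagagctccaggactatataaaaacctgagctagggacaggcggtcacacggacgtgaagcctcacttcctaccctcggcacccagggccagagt
A CArG box stood in this window in 4 of 15 Z-disc genes with a RefSeq promoter (26.7%), 2 of 16 thin filament genes (12.5%), and 105 of the 8423 genes used that have one (1.25%), both strands searched. It was in 1.92% of the lower and 1.1% of the higher genes. The windows of Nppa, Nppb, Xirp2 and Cnn1 held no match, which says only that these letters are not in this window.

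Genes of the sarcoplasmic reticulum included members at both ends of the comparison. Of 22 calcium handling genes 4 were higher and 1 lower, with a median of 0.12. The lower gene was Casq1, the skeletal calsequestrin that stores calcium (chromosome 13, 90592676 to 90602365), with 26.6 FPKM with SR9009 and 321 FPKM with vehicle (-3.55, -3.95 to -3.14). The cardiac isoform Casq2, a close relative, had 698 FPKM with SR9009 and 657 FPKM with vehicle and did not meet the rule. Beside Dhrs7c, the higher genes were the histidine-rich calcium binding protein Hrc (29.98 FPKM with SR9009 and 10.6 FPKM with vehicle), triadin (Trdn, 39.8 FPKM with SR9009 and 18.2 FPKM with vehicle) and phospholamban (Pln, 2283 FPKM with SR9009 and 1121 FPKM with vehicle), which restrains the calcium pump. The call for Pln, the most abundant member, rested on a difference of 1.03 and was lost with quantile normalization, at 0.99.

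Of 22 potassium channel genes 4 were higher and 1 lower, and 18 lay above 0. The higher genes encode inward rectifiers and a sulphonylurea receptor: Kcnj2 (28.2 FPKM with SR9009 and 10.7 FPKM with vehicle), Kcnj12 (1.04), Kcnj11 (1.03) and Abcc8 (33.9 FPKM with SR9009 and 12.97 FPKM with vehicle). Kcne1, the β subunit of the slow delayed rectifier, was lower, with 5.70 FPKM with SR9009 and 25.1 FPKM with vehicle. Among 23 sodium, calcium and pacemaker channel and pump subunits, Scn4b was higher (1.28) and 3 were lower, among them Scn3b (1.19 FPKM with SR9009 and 23.9 FPKM with vehicle). These sodium channel β subunits lay on opposite sides. Of 13 connexin, desmosome and junction genes the connexins Gja5 (31.1 FPKM with SR9009 and 6.95 FPKM with vehicle) and Gja3 (1.14) were higher and the desmocollin Dsc2 was lower (7.04 FPKM with SR9009 and 21.7 FPKM with vehicle). Gja1, the main ventricular connexin and the most abundant of the list, had 370.2 FPKM with SR9009 and 239 FPKM with vehicle and did not meet the rule.

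The G protein-coupled receptors that met the rule lay on both sides. Of 29 G protein-coupled receptors for catecholamines, endothelin, bradykinin, lysolipids and other ligands, 2 were higher and 4 lower. The α1B-adrenergic receptor Adra1b, a receptor of phenylephrine itself, had 21.1 FPKM with SR9009 and 6.87 FPKM with vehicle (1.49, 1.07 to 1.92), and the endothelin receptor Ednra 50.4 FPKM with SR9009 and 24.2 FPKM with vehicle. The lower receptors were Bdkrb2 (2.27 FPKM with SR9009 and 32.7 FPKM with vehicle), F2rl1, the sphingosine receptor S1pr1 (43.6 FPKM with SR9009 and 121 FPKM with vehicle) and the lysophosphatidate receptor Lpar3 (-1.36). Of 10 regulators of G protein signalling used, Rgs6 was higher (1.38) and Rgs4 (3.56 FPKM with SR9009 and 14.7 FPKM with vehicle) and Rgs7bp (-1.29) lower. In the cyclic nucleotide list of 21 genes 3 were higher and 0 lower: the cardiac adenylyl cyclase Adcy5 (59.6 FPKM with SR9009 and 26.2 FPKM with vehicle) and the phosphodiesterases Pde7b (1.22) and Pde4a (1.06). Of 13 calcineurin and NFAT genes 1 met the rule. Rcan1, an inhibitor of calcineurin that is also its target gene, was lower with 123 FPKM with SR9009 and 286 FPKM with vehicle. Of 17 dual-specificity phosphatases, Sprouty and Spred inhibitors of the ERK pathway, Dusp8 (9.23 FPKM with SR9009 and 35.01 FPKM with vehicle) and Dusp4 (-1.43) were lower and Dusp5 higher (25.7 FPKM with SR9009 and 9.09 FPKM with vehicle).

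**Figure D2:**
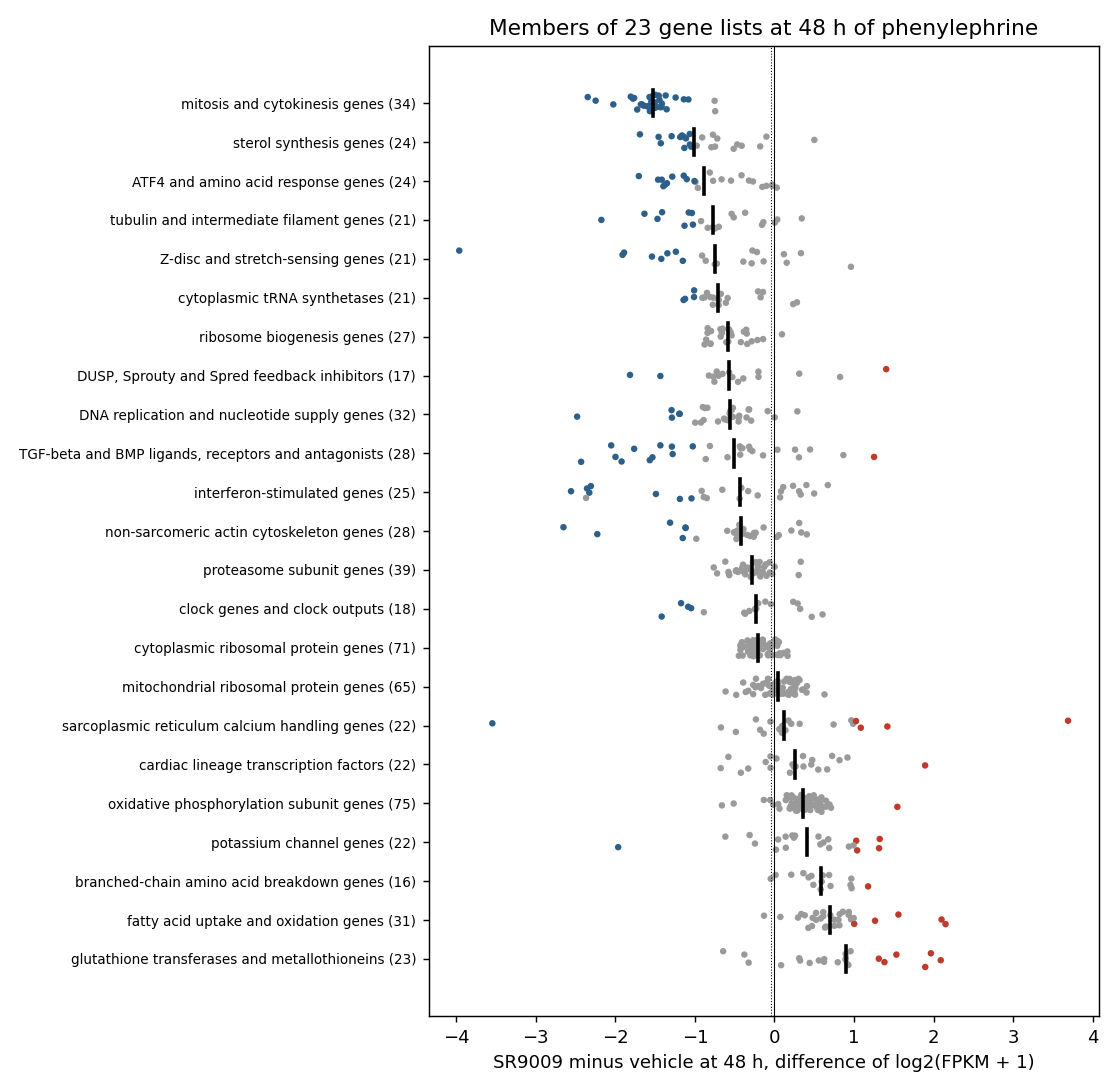
SR9009 minus vehicle difference at 48 h of phenylephrine for the members of 23 gene lists, ordered by the list median (black bars), with the number of members used in parentheses. Red points met the rule as higher, blue points as lower, grey points did not meet it, and the dotted line is the median of all genes, -0.04; the mitosis list lies wholly below 0.

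Early response genes were lower where they met the rule. Of 21 AP-1, EGR and NR4A early genes 3 were lower and 0 higher, with a median of -0.60: Atf3 (3.15 FPKM with SR9009 and 22.6 FPKM with vehicle), Ier3 (82.6 FPKM with SR9009 and 185 FPKM with vehicle) and Jun, whose difference of -1.02 missed the rule under all 3 other scalings at between -0.98 and -0.91. Myc was the 1 member of 10 in its network to meet the rule, with 3.38 FPKM with SR9009 and 17.6 FPKM with vehicle. Of 13 Krüppel-like factors 1 was higher and 1 lower, with 9 below 0 and a median of -0.32. Klf15, a regulator of cardiac metabolism, was the higher (12.1 FPKM with SR9009 and 5.002 FPKM with vehicle). Klf9 was the lower (9.81 FPKM with SR9009 and 21.2 FPKM with vehicle), at -1.04, and missed the rule under the other 3 scalings at between -0.99 and -0.93. Of 22 cardiac lineage factors 1 met the rule. This was Irx4, the Iroquois factor of ventricular muscle, with 81.5 FPKM with SR9009 and 21.2 FPKM with vehicle (1.89, 1.47 to 2.31). Of 29 nuclear receptors and cofactors, the retinoid X receptors Rxrg (16.8 FPKM with SR9009 and 2.32 FPKM with vehicle) and Rxra (31.5 FPKM with SR9009 and 14.2 FPKM with vehicle) were higher and 0 lower. Of 15 histone deacetylases and sirtuins only Hdac11 met the rule, as higher (1.09).

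The clock list bears on REV-ERB most directly, and of its 18 genes 4 were lower and 0 higher, with a median of -0.24. Arntl, which encodes BMAL1, the activator at the head of the clock and a known target of REV-ERB repression, had 5.89 FPKM with SR9009 (bounds 4.90 to 6.89) and 13.3 FPKM with vehicle (bounds 11.2 to 15.3). Its difference of -1.05 (-1.46 to -0.63) was -0.94 with FPKM rescaled to equal sums and -0.99 with quantile normalization, and missed the rule under both. The repressor Nfil3 had 12.6 FPKM with SR9009 and 27.9 FPKM with vehicle, a difference of -1.09 that was -0.98 with FPKM rescaled to equal sums. The other lower genes were Bhlhe40 (28.1 FPKM with SR9009 and 64.6 FPKM with vehicle) and Ciart (1.54 FPKM with SR9009 and 5.78 FPKM with vehicle), which encode repressors of BMAL1-driven transcription. Nr1d1 and Nr1d2, which encode the REV-ERB receptors, had 13.4 FPKM with SR9009 and 17.7 FPKM with vehicle and 25.6 FPKM with SR9009 and 21.6 FPKM with vehicle and did not meet the rule. The locus of Nr1d1 is wide enough to take in its neighbour Thra, so its values are uncertain.

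The Arntl promoter is shown because the motif AGGTCA is the core of REV-ERB response elements. The window holds 1 copy, in capitals, which begins 15 bases before the gene start (RefSeq, where the gene is named Bmal1, GRCr8, chr1:176766078-176766377, plus strand).
Arntl: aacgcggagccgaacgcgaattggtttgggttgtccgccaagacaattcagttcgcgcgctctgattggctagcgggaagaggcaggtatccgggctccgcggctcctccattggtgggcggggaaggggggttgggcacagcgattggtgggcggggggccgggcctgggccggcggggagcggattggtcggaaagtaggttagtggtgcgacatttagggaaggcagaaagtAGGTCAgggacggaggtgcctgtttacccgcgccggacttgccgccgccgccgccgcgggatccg
AGGTCA was in the windows of 12.9% of the lower genes, 14.4% of the higher genes and 11.6% of all genes used with a promoter, on either strand. In the clock list it was in 2 of 16 windows (12.5%), close to the share of all genes used, and the window of Nfil3 held no match. The E-box CACGTG stood in 3 of 16 clock gene windows (18.8%) against 9.59% of all genes used, and the window of Ciart alone held 3 copies.

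Fatty acid and respiratory chain genes mostly lay above 0, with few members past the rule. Of 31 fatty acid uptake and oxidation genes 5 were higher and 0 lower, 30 lay above 0, and the median was 0.70. Ech1, a dienoyl-CoA isomerase of β-oxidation (chromosome 1, 87009798 to 87015996), had 190.4 FPKM with SR9009 (bounds 162 to 219) and 42.1 FPKM with vehicle (bounds 35.7 to 48.5). Hadh, the short-chain hydroxyacyl-CoA dehydrogenase, had 112 FPKM with SR9009 and 25.3 FPKM with vehicle, Plin5, a lipid droplet protein of oxidative tissue, 4.12 FPKM with SR9009 and 0.738 FPKM with vehicle, and the thiolase Acaa2 84.5 FPKM with SR9009 and 34.6 FPKM with vehicle. The liver-type carnitine palmitoyltransferase Cpt1a met the rule at 1.00. The most abundant member, the fatty acid binding protein Fabp3, had 1739 FPKM with SR9009 and 1137 FPKM with vehicle and did not meet it. Of 75 oxidative phosphorylation subunits 70 lay above 0, with a median of 0.36, yet only Cox8b, the muscle isoform of a cytochrome oxidase subunit, met the rule (1554 FPKM with SR9009 and 532 FPKM with vehicle). The most abundant subunit, Atp5b of the ATP synthase, had 4772 FPKM with SR9009 and 3707 FPKM with vehicle. Of 26 tricarboxylic acid cycle and pyruvate dehydrogenase genes 0 met the rule (median 0.22), and of 16 genes for the breakdown of branched-chain amino acids 1 did, the aminotransferase Bcat2 (81.5 FPKM with SR9009 and 35.5 FPKM with vehicle; list median 0.59). Mitochondrial ribosomal protein genes had a median of 0.05, with 0 of 65 past the rule, and 0 of 17 genes of mitochondrial dynamics and biogenesis met it.

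Glycolysis genes that met the rule lay on both sides. Of 24 genes 3 were higher and 3 lower. The muscle forms of phosphofructokinase, Pfkm (136 FPKM with SR9009 and 64.5 FPKM with vehicle), and phosphoglycerate mutase, Pgam2 (134 FPKM with SR9009 and 52.7 FPKM with vehicle), were higher with Aldoc. The platelet form of phosphofructokinase, Pfkp (115 FPKM with SR9009 and 380.4 FPKM with vehicle), the lactate exporter Slc16a3 (48.8 FPKM with SR9009 and 144 FPKM with vehicle) and Pfkfb3 (-1.14), which makes the activator of phosphofructokinase, were lower. Gapdh, the most abundant, had 3206 FPKM with SR9009 and 3548 FPKM with vehicle. Of 7 creatine handling genes 3 were higher and 2 lower. The muscle creatine kinases Ckm (786 FPKM with SR9009 and 327 FPKM with vehicle) and Ckmt2 (1.25) and the methyltransferase Gamt (1.18) were higher, while Ckmt1b, the ubiquitous mitochondrial form (-1.96), and Gatm, the first enzyme of creatine synthesis (3.69 FPKM with SR9009 and 14.1 FPKM with vehicle), were lower. In the glycogen and pentose phosphate list of 19 genes the brain-type phosphorylase Pygb was higher (142 FPKM with SR9009 and 65.95 FPKM with vehicle), and of 14 triglyceride genes 2 were, the lipase inhibitor G0s2 (231 FPKM with SR9009 and 101 FPKM with vehicle) and monoglyceride lipase Mgll (1.01). Of 32 mitochondrial carriers 2 were higher, Slc25a34 (1.15) and Slc25a42 (1.15).

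Sterol synthesis genes that met the rule were all lower. Of 24 genes 12 were lower and 0 higher, 23 lay below 0, and the median was -1.01. Farnesyl diphosphate synthase Fdps, the most abundant member, had 356 FPKM with SR9009 and 979 FPKM with vehicle, and isopentenyl diphosphate isomerase Idi1 76.4 FPKM with SR9009 and 207 FPKM with vehicle. Squalene epoxidase Sqle (-1.29) and Acat2, the acetyl-CoA acetyltransferase that opens the pathway (-1.18), were also lower. Of 13 fatty acid synthesis genes the desaturases Scd1 (19.8 FPKM with SR9009 and 85.4 FPKM with vehicle) and Fads1 (-1.03, which was between -0.99 and -0.92 under the other 3 scalings) were lower. CCAAT, the box bound by NF-Y, stood in 14 of 17 sterol gene windows (82.4%) against 38.1% of all genes used, on either strand.

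Mitosis genes were lower almost throughout their list. Of 34 mitosis and cytokinesis genes 32 were lower and 0 higher, all lay below 0, and the median was -1.52. Prc1, which bundles the microtubules of the spindle midzone (chromosome 1, 142087208 to 142108746), had 8.41 FPKM with SR9009 (bounds 7.15 to 9.68) and 46.9 FPKM with vehicle (bounds 40.01 to 53.8). Topoisomerase Top2a had 7.34 FPKM with SR9009 and 38.6 FPKM with vehicle, the cytokinesis regulator Ect2 5.13 FPKM with SR9009 and 23.96 FPKM with vehicle, the centriole kinase Plk4 3.68 FPKM with SR9009 and 15.4 FPKM with vehicle and the spindle motor Kif2c 2.20 FPKM with SR9009 and 9.99 FPKM with vehicle. The mitotic kinase Cdk1, the highest of the list in vehicle, had 15.96 FPKM with SR9009 and 55.1 FPKM with vehicle. Differences in the list lay between -2.35 and -0.75, and its levels were low or moderate in both groups. Of 32 DNA replication and nucleotide supply genes 5 were lower and 0 higher (median -0.56): the ribonucleotide reductase subunit Rrm2 (23.1 FPKM with SR9009 and 133 FPKM with vehicle), Fen1 (-1.29), the helicase subunits Mcm5 (-1.29) and Mcm6 (-1.19), and Uhrf1 (-1.20). Of 18 cyclin, E2F and retinoblastoma genes Foxm1 (2.80 FPKM with SR9009 and 8.32 FPKM with vehicle), E2f1 (-1.26) and Mybl2 (-1.04, between -0.998 and -0.95 under the other 3 scalings) were lower, while the D-type cyclin Ccnd2, the highest of the list in vehicle (133 FPKM with SR9009 and 191 FPKM with vehicle), did not meet the rule. The imprinted inhibitor Cdkn1c, by contrast, was higher with 47.5 FPKM with SR9009 and 9.37 FPKM with vehicle (2.22, 1.89 to 2.57). Of the 16 inhibitors and growth arrest genes 4 were lower, among them Gadd45g (42.7 FPKM with SR9009 and 301 FPKM with vehicle) and Cdkn2c (-1.23). The calls of Cdkn2b (-1.08) and Gadd45a (-1.08) were lost with FPKM rescaled to equal sums, both at -0.97. Gadd45a also missed the rule with quantile normalization, at -0.99. Which cells of the culture carried these transcripts was not tested.

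The promoters of Prc1 and Cdk1 are shown because mitotic genes are known for a cell cycle homology region near the start, TTTGAA or TTCGAA, in capitals below. Prc1 holds 1 copy, 18 bases before the gene start (chr1:143659231-143659530, plus strand), and Cdk1 holds copies 72 and 16 bases before it (chr20:19265043-19265342, plus strand; both RefSeq, GRCr8).
Prc1: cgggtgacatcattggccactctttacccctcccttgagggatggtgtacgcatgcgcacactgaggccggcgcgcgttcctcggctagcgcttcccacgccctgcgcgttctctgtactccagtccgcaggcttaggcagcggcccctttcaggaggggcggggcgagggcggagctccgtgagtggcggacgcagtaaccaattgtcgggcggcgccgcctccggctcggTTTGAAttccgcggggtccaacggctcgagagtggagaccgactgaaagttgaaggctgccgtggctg
Cdk1: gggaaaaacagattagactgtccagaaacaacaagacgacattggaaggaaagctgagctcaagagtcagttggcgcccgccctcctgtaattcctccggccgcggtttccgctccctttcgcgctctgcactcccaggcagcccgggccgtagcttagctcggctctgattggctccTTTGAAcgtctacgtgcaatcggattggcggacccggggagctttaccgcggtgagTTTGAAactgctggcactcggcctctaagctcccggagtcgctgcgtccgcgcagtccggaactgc
Either motif stood on either strand in 24 of 30 mitosis gene windows (80%), 28.2% of all lower genes, 12.2% of the higher genes and 13.2% of all genes used. In DNA replication genes it stood in 4 of 28 windows (14.3%). CCAAT was in 22 of the 30 mitosis windows (73.3%) and 17 of 28 replication windows (60.7%).

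Lists of amino acid supply and protein synthesis had medians below 0. Of 24 genes of the ATF4 and amino acid response 10 were lower and 0 higher, with a median of -0.89. Atf4 itself, the transcription factor of the response and the highest of the list in vehicle, had 139 FPKM with SR9009 and 339.7 FPKM with vehicle. The arginine transporter Slc7a1 had 9.81 FPKM with SR9009 and 34.2 FPKM with vehicle, the mitochondrial folate enzyme Mthfd2 28.8 FPKM with SR9009 and 81.1 FPKM with vehicle, the lipoprotein receptor Vldlr 34.3 FPKM with SR9009 and 93.3 FPKM with vehicle, and the pseudokinase Trib3 9.30 FPKM with SR9009 and 26.1 FPKM with vehicle. Of 21 cytoplasmic tRNA synthetases 4 were lower and 0 higher (median -0.71), led by Yars (22.3 FPKM with SR9009 and 50.4 FPKM with vehicle) and Iars (-1.12); Wars and Nars lost the call under the other 3 scalings. Ribosome biogenesis genes (27, median -0.58) and cytoplasmic ribosomal protein genes (71, median -0.21) had 0 members past the rule, although 26 of the biogenesis genes lay below 0. Of 23 endoplasmic reticulum chaperones and unfolded protein response genes all lay below 0 (median -0.41) and 1 met the rule, the co-chaperone Dnajb9 (31.3 FPKM with SR9009 and 69.5 FPKM with vehicle). The main chaperone Hspa5, the highest of the list in vehicle, had 244 FPKM with SR9009 and 426 FPKM with vehicle. Of 18 cytosolic heat shock genes Hspb8 (151 FPKM with SR9009 and 344 FPKM with vehicle) and Hspa2 (-1.43) were lower.

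Degradation genes showed few calls. Of 39 proteasome subunits 0 met the rule, with 36 below 0 and a median of -0.28, and of 37 lysosome genes 0 did (median 0.19). Of 28 autophagy genes only Pink1, the kinase that marks damaged mitochondria, met it, as higher, with 152 FPKM with SR9009 and 43.5 FPKM with vehicle (1.78, 1.36 to 2.20). Of 15 FOXO and atrophy genes 3 were higher and 0 lower: Fbxo32, the muscle ubiquitin ligase atrogin-1 (70.9 FPKM with SR9009 and 27.6 FPKM with vehicle), Ddit4l2 (24.2 FPKM with SR9009 and 5.22 FPKM with vehicle) and Klhl38 (1.22). In the BCL2 and caspase list of 23 genes, the pro-apoptotic Bcl2l11 (19.5 FPKM with SR9009 and 5.36 FPKM with vehicle) and Bmf (1.11) were higher and Pmaip1 lower (13.3 FPKM with SR9009 and 30.5 FPKM with vehicle).

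Glutathione and xenobiotic enzymes that met the rule were higher. Of 23 glutathione transferases and metallothioneins 6 were higher and 0 lower, with a median of 0.89: Gstm1 (32.7 FPKM with SR9009 and 6.93 FPKM with vehicle), Gstm2 (182 FPKM with SR9009 and 45.9 FPKM with vehicle), Gstm7 (1.90), Mgst1 (1.53) and Gstk1 (1.38) were the largest. These families have close copies and their reads could be split. Of 7 aryl hydrocarbon receptor genes Aldh3a1 (3.26 FPKM with SR9009 and 0.707 FPKM with vehicle) and Cyp1a1 (4.86 FPKM with SR9009 and 1.52 FPKM with vehicle) were higher. Of 23 NRF2 target genes Nqo1 was higher (53.03 FPKM with SR9009 and 23.9 FPKM with vehicle) while Srxn1 (14.1 FPKM with SR9009 and 33.96 FPKM with vehicle) and Hmox1 (-1.08, or -0.96 after rescaling both groups to equal sums of FPKM) were lower, with a list median of 0.04.

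Cytoskeletal genes were lower in many cases. Of 21 tubulin and intermediate filament genes 8 were lower and 0 higher (median -0.77), among them nestin (Nes, 3.58 FPKM with SR9009 and 19.7 FPKM with vehicle), the tubulins Tubb6 (36.6 FPKM with SR9009 and 116 FPKM with vehicle), Tubb4b (-1.47), Tuba1a (-1.41) and Tuba4a (-1.13), and the most abundant, desmin (Des, 1281 FPKM with SR9009 and 2706 FPKM with vehicle). Of 28 non-sarcomeric actin cytoskeleton genes 6 were lower and 0 higher, led by calponin Cnn1 (35.5 FPKM with SR9009 and 229 FPKM with vehicle), the α-actinin Actn1 (58.4 FPKM with SR9009 and 277 FPKM with vehicle), villin (Vil1, -1.31), zyxin (Zyx, -1.15) and cofilin 2 (Cfl2, -1.12).

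Growth factor and matrix genes split by family. Of 28 TGF-β and BMP pathway genes 11 were lower and 1 higher, with a median of -0.51. The lower genes include the ligand Tgfb2 (32.8 FPKM with SR9009 and 181 FPKM with vehicle), the activin subunit Inhba (4.75 FPKM with SR9009 and 22.9 FPKM with vehicle), the BMP antagonist Grem1 (0.958 FPKM with SR9009 and 6.42 FPKM with vehicle) and Bmp2 (-1.76). The coreceptor Tgfbr3 was higher with 22.3 FPKM with SR9009 and 8.77 FPKM with vehicle. Of 16 matricellular genes 4 were lower, led by Ctgf (274 FPKM with SR9009 and 1541 FPKM with vehicle), Thbs1 (150.5 FPKM with SR9009 and 515 FPKM with vehicle) and Cyr61 (-1.56); Thbs4 at -1.01 lost the call under the other 3 scalings. Of 17 collagen chains none was lower and Col4a3 was higher (20.4 FPKM with SR9009 and 8.50 FPKM with vehicle), whereas of 17 collagen processing genes 4 were lower: lysyl oxidase (Lox, 12.5 FPKM with SR9009 and 49.4 FPKM with vehicle), Plod2 (-1.28), P4ha1 (-1.20) and Loxl2 (-1.12). Among 14 elastic fibre genes Efemp1 (1.46) and Fbln1 (1.38) were higher and Ltbp2 lower (-1.33), and of 6 small proteoglycan genes Lum (1.46) and Dcn (1.20), both counted above among fibroblast markers, were higher. Of 23 metalloproteinase and ADAMTS genes 5 were higher and 0 lower, namely Adamtsl3 (22.9 FPKM with SR9009 and 3.79 FPKM with vehicle), Adamts7 (1.20), Adamts12 (1.14), Mmp15 (45.03 FPKM with SR9009 and 20.3 FPKM with vehicle) and Adamts5 (1.02). Of 19 integrin and laminin genes 2 were lower and 0 higher, among them Itga6 (19.4 FPKM with SR9009 and 50.9 FPKM with vehicle).

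Among secreted signals, of 10 EGF family genes Hbegf (8.33 FPKM with SR9009 and 58.9 FPKM with vehicle) and Areg (-1.55) were lower. In the list of 30 VEGF, FGF, PDGF and neurotrophin genes Bdnf (0.934 FPKM with SR9009 and 7.97 FPKM with vehicle) and Pgf (-1.49) were lower, while pleiotrophin (Ptn, 53.2 FPKM with SR9009 and 14.04 FPKM with vehicle), Ntf3 (9.51 FPKM with SR9009 and 2.29 FPKM with vehicle) and Angpt1 (1.00) were higher. Of 39 axon guidance genes, Ntn1 (44.4 FPKM with SR9009 and 7.35 FPKM with vehicle), Sema6d (1.40) and Epha3 (34.6 FPKM with SR9009 and 14.3 FPKM with vehicle) were higher and Sema3c (30.9 FPKM with SR9009 and 163 FPKM with vehicle), Epha2 (6.90 FPKM with SR9009 and 24.3 FPKM with vehicle), Efna5 (-1.19), Unc5b (-1.15) and Efnb2 (-1.12) lower. Unc5b encodes a receptor of netrin 1, so a ligand and a receptor of the same pair lay on opposite sides. Of 14 WNT pathway genes Dkk3 (95.3 FPKM with SR9009 and 34.9 FPKM with vehicle) and Sfrp2 (1.17) were higher and Rspo3 (-1.58) and Fzd2 (-1.05, -0.94 with FPKM rescaled to equal sums and -0.96 with quantile normalization) lower. No Notch gene (0 of 9) and no insulin-like growth factor gene (0 of 14) met the rule. Of 15 hypoxia genes 3 were lower and 0 higher, Ankrd37 (0.548 FPKM with SR9009 and 4.64 FPKM with vehicle), the prolyl hydroxylase Egln3 (59.6 FPKM with SR9009 and 164 FPKM with vehicle) and P4ha1.

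Immune genes that met the rule lay on both sides. Of 25 interferon-stimulated genes 7 were lower and 0 higher, with Oasl (0.790 FPKM with SR9009 and 9.54 FPKM with vehicle), Ifit3 (0.730 FPKM with SR9009 and 7.86 FPKM with vehicle), Isg15 (13.4 FPKM with SR9009 and 71.3 FPKM with vehicle), Rsad2 (0.585 FPKM with SR9009 and 6.85 FPKM with vehicle) and Mx2 (5.97 FPKM with SR9009 and 18.6 FPKM with vehicle) as the largest. The interferon list had a median of -0.44, with 9 members above 0 and 16 below. All 26 genes of the list summed to 688 FPKM with SR9009 and 760 FPKM with vehicle. Cxcl10 differed by -2.37, but its bounds allowed -5.97 to 0.57 and it was not counted. Of 21 chemokine, cytokine and prostaglandin genes 4 were lower and 2 higher. The TWEAK receptor Tnfrsf12a had 108 FPKM with SR9009 and 563 FPKM with vehicle, prostacyclin synthase Ptgis 24.1 FPKM with SR9009 and 115 FPKM with vehicle, and cyclooxygenase 2 (Ptgs2) 2.28 FPKM with SR9009 and 12.5 FPKM with vehicle, all lower. Prostaglandin D synthase Ptgds (69.8 FPKM with SR9009 and 26.8 FPKM with vehicle) and the chemokine Cxcl1 (4.86 FPKM with SR9009 and 1.25 FPKM with vehicle) were higher. In the gp130 list of 19 genes, Reg3b, Pla2g2a and the receptor Lifr (19.03 FPKM with SR9009 and 6.77 FPKM with vehicle) were higher, and Lif at -1.05 was lower, a call lost with FPKM rescaled to equal sums (-0.95).

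The SR9009 difference at 48 h was wider than at the earlier times, whose libraries are separate. Its interquartile range over genes was 0.54 at 48 h, against 0.36 at 4 h and 0.29 at 0 h. At 4 h 52 genes were higher (0.499%) and 109 lower (1.05%), and at 0 h 52 were higher (0.499%) and 59 lower (0.566%). Of the 243 genes higher at 48 h, 8 were higher and 7 lower at 0 h, and 4 were higher and 10 lower at 4 h. Of the 474 genes lower at 48 h, 8 were lower and 5 higher at 0 h, and 29 were lower and 5 higher at 4 h. Those 29 are 6.12% of the lower genes at 48 h and 26.6% of the lower genes at 4 h.

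Only 11 genes met the rule at all 3 times, and 4 of them changed sides. Gsta1, Mgst1 and the quinone reductase Nqo1 were higher each time, with Nqo1 at 1.41, 1.77 and 1.12 at 0, 4 and 48 h. The 4 genes lower each time include the complement gene C1qa, the caveola protein gene Murc and Wfdc1, with Murc at -1.56, -1.23 and -2.45. Dhrs7c was lower at 0 and 4 h (-1.80 and -2.16) and higher at 48 h (3.69). Its levels were 19.1, 10.6 and 34.6 FPKM with SR9009 at 0, 4 and 48 h, and 68.98, 50.5 and 1.76 FPKM with vehicle. Thus at 48 h the vehicle level was the lowest of the 3 times and the SR9009 level the highest. The differences of the creatine kinase Ckmt2 (-1.29, -1.12 and 1.25) and the antigen presentation gene Cd74 (-2.16, -2.37 and 1.31) changed sign in the same direction. Sulfiredoxin Srxn1 went the other way, at 1.68, 1.71 and -1.22.

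**Figure D3:**
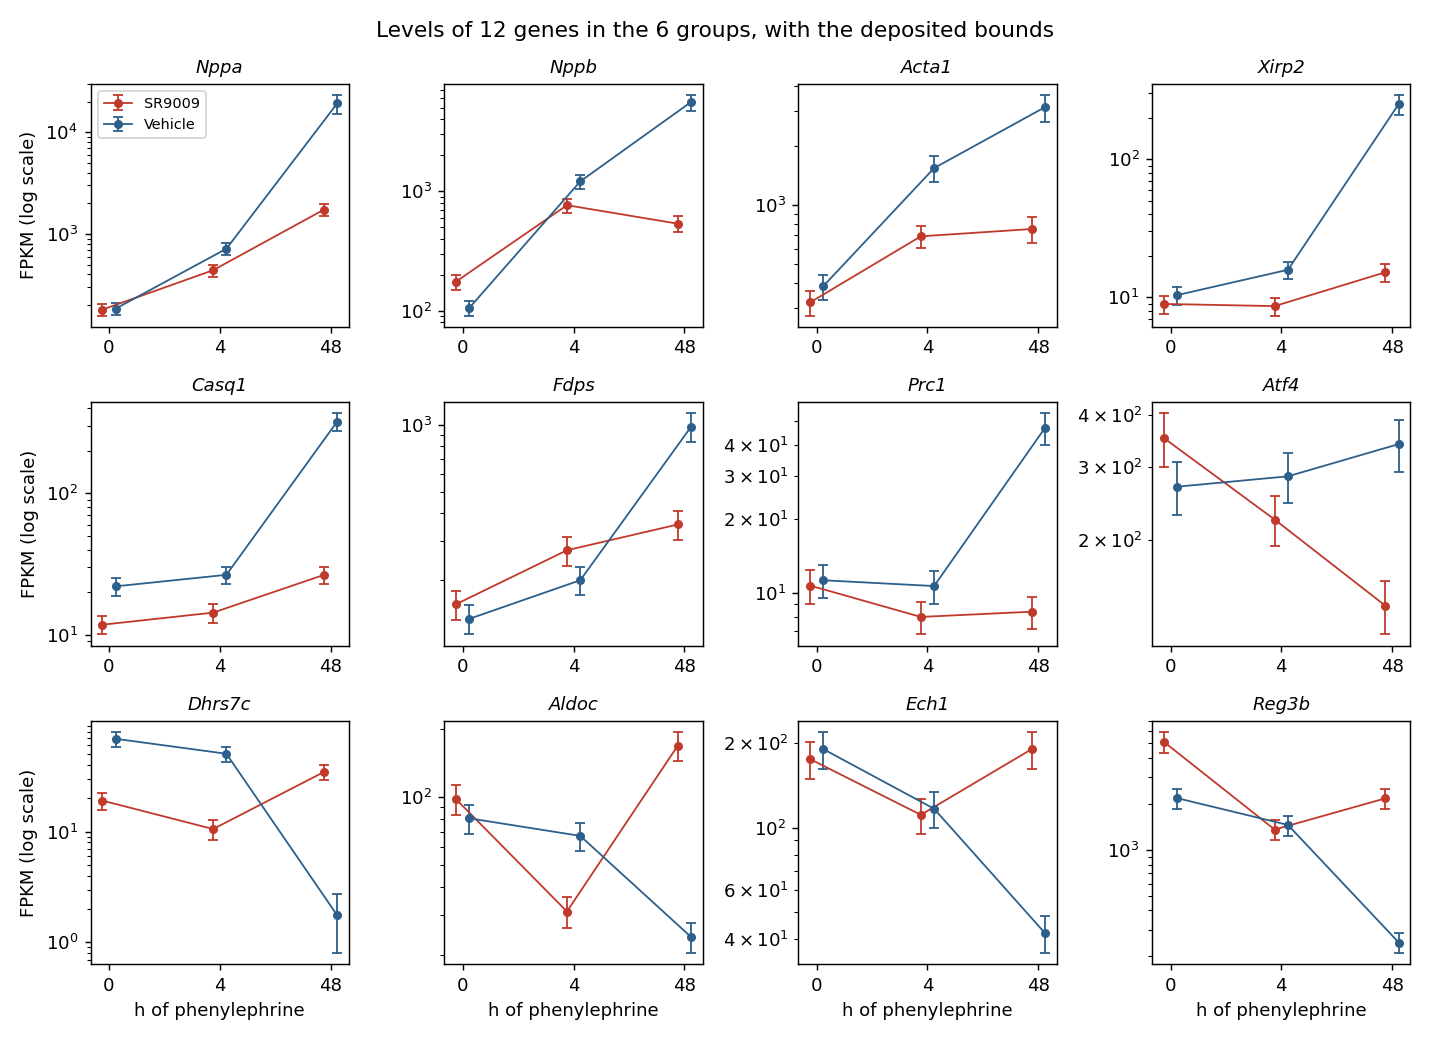
Level in FPKM (log scale) of 12 genes at 0, 4 and 48 h of phenylephrine with SR9009 (red) and vehicle (blue), with the deposited bounds as bars. At 48 h the first 8 genes are lower and the last 4 higher with SR9009; Casq1, for example, had 26.6 FPKM with SR9009 and 321 FPKM with vehicle.

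For the named genes with the largest differences the 6 groups show where the arms part. Nppb had 175, 763 and 534 FPKM with SR9009 at 0, 4 and 48 h, and 105, 1208 and 5588 FPKM with vehicle. Before phenylephrine the SR9009 level was the higher of the 2, and at 48 h the lower. Xirp2 had 8.96, 8.64 and 15.2 FPKM with SR9009, and 10.4, 15.8 and 252 FPKM with vehicle. Casq1 had 11.8, 14.4 and 26.6 FPKM with SR9009, and 22.1, 26.6 and 321 FPKM with vehicle, so its SR9009 level was the lower at each time. Aldoc had 97.5, 31.1 and 168 FPKM with SR9009, and 80.3, 67.2 and 24.03 FPKM with vehicle. Ech1 had 176, 111 and 190.4 FPKM with SR9009, and 191, 117 and 42.1 FPKM with vehicle, nearly equal in both arms until 4 h. Prc1 had 10.7, 8.01 and 8.41 FPKM with SR9009, and 11.3, 10.7 and 46.9 FPKM with vehicle. No group was kept for 48 h without phenylephrine, so time in culture and phenylephrine cannot be told apart in these levels.

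The list medians at the 3 times differed in sign for several groups. The sterol list had medians of 0.15, 0.53 and -1.01 at 0, 4 and 48 h, the ATF4 list 0.44, 0.23 and -0.89, and the tRNA synthetases 0.33, 0.20 and -0.71. Cytoplasmic ribosomal protein genes stood at 0.38, 0.35 and -0.21. In these lists SR9009 lay above vehicle before phenylephrine and below it at 48 h. The reverse held for fatty acid oxidation (-0.11, -0.03 and 0.70), oxidative phosphorylation (-0.23, -0.21 and 0.36) and potassium channels (-0.36, -0.23 and 0.41). Markers of more than 1 cell type crossed 0 too: the cardiomyocyte markers had medians of -0.53, -0.51 and 0.65 and the fibroblast markers of -0.10, -0.41 and 0.55. The smooth muscle markers stayed below 0, at -0.32, -0.48 and -0.49. So did the sarcomere lists, with medians of -0.41, -0.37 and -0.42 for actin, troponin and tropomyosin genes. The myosin chain and M-band list had -0.63, -0.47 and -0.33, and the Z-disc list -0.26, -0.48 and -0.75. The medians of all genes were -0.01, -0.06 and -0.04.

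**Figure D4:**
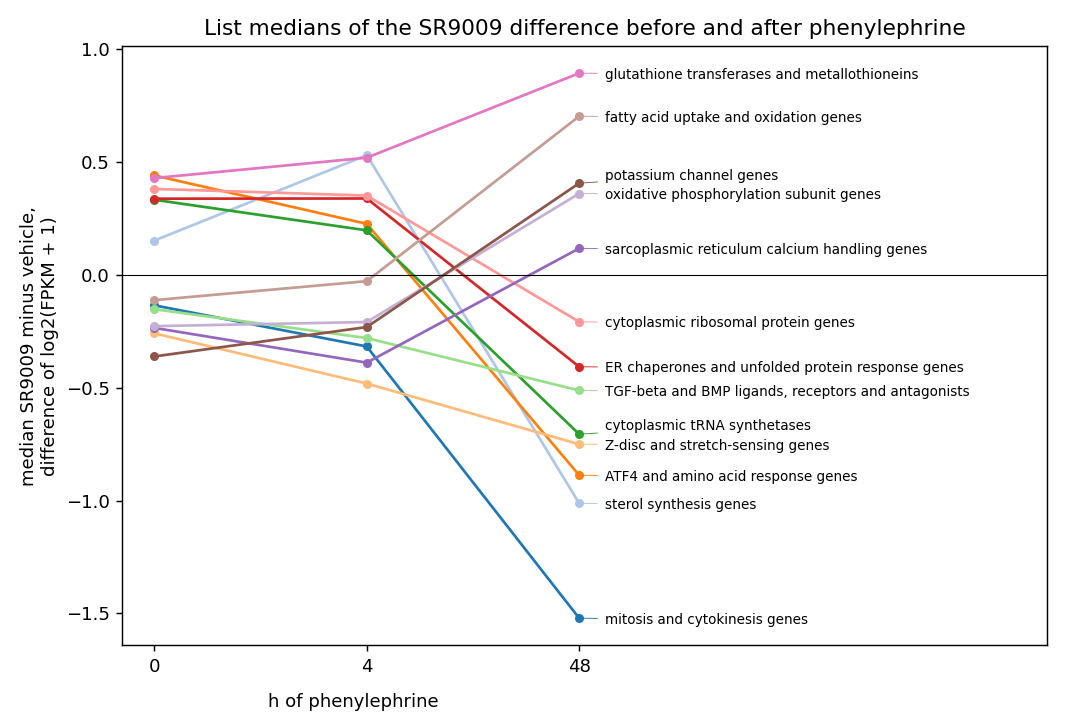
Median SR9009 minus vehicle difference of 13 gene lists at 0, 4 and 48 h of phenylephrine, in log2(FPKM + 1), with each line 1 list. The sterol, ATF4, tRNA synthetase and ribosomal protein lines cross 0 downward between 4 and 48 h, and the fatty acid oxidation, oxidative phosphorylation and potassium channel lines cross it upward.

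Promoter windows were also searched for the AP-1 site TGACTCA and the GATA site TGATA, on either strand. TGACTCA stood in 4 of 15 Z-disc windows (26.7%), 5.75% of the lower genes, 2.21% of the higher genes and 3.41% of all genes used. TGATA stood in 41 of 181 higher genes with a window (22.7%), 8.77% of the lower genes and 12.9% of all genes used. Over all 27457 RefSeq promoters, with genes not used here included, the shares were 4.53% for TGACTCA and 24.7% for TGATA. By that background the higher genes do not stand out for TGATA. These shares are descriptions, and overlapping matches of different motifs were not removed.

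A further 24 genes reached a difference of size 1 with bounds that allowed 0. Other entries that averaged 1 FPKM or more had no usable pair of values. Listed at 0 were 23 with SR9009 only, 34 with vehicle only and 59 in both groups, and 5 had too many fragments. Apart from LOC252890, the entries listed at 0 were microRNA loci. Mir125a, for example, had 0 FPKM with SR9009 and 66.4 FPKM with vehicle, and Mir499 243 FPKM with SR9009 and 0 FPKM with vehicle. The microRNA loci counted below leave these out. The share of lower genes varied with level, from 6.78% at a mean of 1 to 3 FPKM to 2.78% at 10 to 30 FPKM and 5.26% at 300 FPKM or more. Of 51 microRNA loci used 7 were higher and 3 lower, among them Mir628 (155 FPKM with SR9009 and 29.4 FPKM with vehicle) and Mir21 (71.5 FPKM with SR9009 and 14.7 FPKM with vehicle). These are transcripts counted at loci of 81 to 469044 bases, with 54628 bases for Mir628 and 92 bases for Mir21. The libraries were made for messenger RNA, so the values do not measure mature microRNAs.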

How the data were processed

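RNA was sequenced from 18 libraries of neonatal rat ventricular myocytes in 6 groups of 3, from a strand-specific mRNA kit, as the labels' protocols state. Per the submitters' processing notes the tools were FastQC, Trim Galore, TopHat and Cuffdiff (versions not listed there) and the build was rn6. The deposited table holds FPKM, made by the authors as 1 value per gene and group with a lower and an upper bound, a status and a locus, per the file headers. How libraries were scaled to each other, and the level of confidence of the bounds, is not given in the sources used here. Values per library were not used here, so no test, standard deviation or p-value was computed, and the depth is unknown.

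From these values the SR9009 minus vehicle difference of log2(FPKM + 1) was computed (Python 3.11.15, numpy 2.4.6, pandas 2.3.3) for genes with an estimate above 0 in both groups whose FPKM averaged 1 or more across the 6 groups. A listed 0 can be a failed estimate and entered no difference. A gene was counted at a difference of at least 1 when the widest range of the bounds excluded 0; 16 genes outside their own bounds entered no count. The rule was run on simulated group values whose error was drawn from the deposited bounds, with changes set only in genes of at least 5 FPKM. Such values hold no spread between libraries, so that run cannot show how the rule behaves under it. Members of 72 role lists and 9 marker lists were counted. The members, lists and thresholds were chosen with earlier results of these data known.

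Named genes are the 15 largest differences per direction with at least 5 FPKM in a compared group, up to 5 members of each list per direction, and the highest member of a list. Nppa, Nppb, Acta1, Myh6, Myh7, Nr1d1, Nr1d2 and Arntl are always named. Cell type markers, Casq2, Myl6, Cxcl10, the natriuretic peptide receptors and the genes called at all 3 times were added after their values were seen. Loci are those of the table on rn6, with the first base counted as 1. Promoters of RefSeq (GRCr8, 250 bases before to 50 after the gene start) were matched by symbol for 8423 of 10424 genes (80.8%). Motifs were searched on both strands. A few genes that the rule names, and 1 list, are not reported here.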

Additional observations from a re-analysis of the deposited data

How the results depend on the processing

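With the other scalings (FPKM rescaled to equal sums, quantile normalization, centring on the median) the counts lay between 295 and 341 higher and between 391 and 433 lower genes, within 1.5 times of 243 and 474. A pseudocount of 5 left 114 higher and 245 lower genes, and a difference of at least 1.5 left 61 and 183, both by construction asking for larger changes. A pseudocount of 0.1 gave 331 and 597, no filter on the mean 244 and 488, a mean of at least 5 FPKM 203 and 337, and the difference alone without the range 258 and 483. Of 227 genes that the naming rule takes, 225 met the rule, 208 kept it under all 3 scalings, 17 lost it under at least 1, and 0 changed sign; the cause was not tested. The medians of the natriuretic, calcineurin, MYC, mitochondrial carrier, creatine, collagen and BCL2 lists changed sign under at least 1 scaling and are not given. No paired analysis was possible because the table holds no value per replicate, and leaving out a replicate was not run for the same reason. The depth is unknown, so what depth limits could not be measured beyond the bounds.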
